A study of Mus musculus with 6 samples.

Results

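Toll-like receptors are membrane proteins that bind conserved molecules of microbes or of damaged cells. Some sit at the cell surface and bind lipids and proteins, others sit in endosomes and bind nucleic acids, and nearly all of them signal through the adaptor Myd88 towards NF-kB and interferon regulatory factors. In the eye they are known mainly from macrophages, microglia and other leukocytes, and some have been described in cells of the retinal pigment epithelium (RPE) as well. The 8 receptor genes Tlr1, Tlr2, Tlr4, Tlr6, Tlr7, Tlr8, Tlr9 and Tlr13, the lipopolysaccharide co-receptor gene Cd14 and the adaptor gene Myd88 were taken by their symbols from a table of 33924 genes that compares aged with young RPE/choroid. All 10 genes were found, and all 10 were among the 18636 genes tested, that is, genes with an adjusted p.

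RPE/choroid comprises the pigmented epithelium that supports the photoreceptors and the vessel-rich choroid on which it rests, and was scraped from eyecups of C57BL/6J mice, with a pair of eyes per library. There were 3 young and 3 aged libraries, all labelled male, whereas the methods name both sexes. The young mice are labelled 1 to 2 months, which is younger than the methods state. For the aged mice, titles state 20 to 24 months, but another label states 22 to 24. No treatment or altered allele is named for either group. Total RNA was sequenced after removal of ribosomal RNA, without selection for poly(A) tails.

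Values of single libraries are not in the table used here, which has 1 line per gene. A level is therefore a baseMean, the mean of normalized counts over the 6 libraries, and a difference is the log2 fold change of aged over young ± its standard error (SE), here with a 95% Wald interval. The sign of the fold changes is not stated in the table and was read from how the study words its contrast, so each direction rests on that reading. Replicate error enters only through the SE, depth per library is unknown here, and whether the values of single young and aged mice overlap cannot be seen. Young and aged means were worked out from baseMean and fold change. They are approximate, because the fold changes appear to have been shrunk towards 0. The SE was 0.19 for Ly6g and 0.29 for Ifnb1, at baseMeans of 0.296 and 0.751, below the 0.32 of Tlr9 at 42.7. Shrinkage draws in genes with few counts most, which limits comparisons of fold changes between low and abundant genes. In this tissue the sum of all cells was measured, so more cells of a type and more RNA per cell cannot be told apart.

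The genomic sequence before the start site is shown for 4 receptors with log2 fold changes from 0.77 to 3.47, so that they can be read beside the values given further on. Tlr8 and Tlr13 had large rises, Tlr2 a moderate one, and Tlr9 did not pass the test, although its interval overlapped that of Tlr2. The bases come from RefSeq (GRCm38.p6), run 5′ to 3′ on the strand of the gene, and stop at the first annotated exon. Capitals mark motif matches, read on either strand. These are the ETS core GAGGAA and the C/EBP motif TTGCNNAA, both printed as the reverse complement in Tlr8, the AP-1 motif TGANTCA, and the NF-kB motif, which is GGG and CC with any 5 bases between them.
Tlr8, chrX:167264330-167264579, minus strand: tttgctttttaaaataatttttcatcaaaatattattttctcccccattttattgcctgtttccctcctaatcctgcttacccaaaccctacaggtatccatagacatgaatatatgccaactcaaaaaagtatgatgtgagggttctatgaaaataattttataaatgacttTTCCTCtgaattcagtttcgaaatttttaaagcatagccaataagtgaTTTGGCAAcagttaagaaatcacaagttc
Tlr13, chrX:106143025-106143203, plus strand: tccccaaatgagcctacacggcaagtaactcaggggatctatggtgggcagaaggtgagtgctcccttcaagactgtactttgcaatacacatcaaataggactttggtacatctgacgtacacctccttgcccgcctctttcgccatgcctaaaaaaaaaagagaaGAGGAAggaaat
Tlr9, chr9:106222348-106222597, plus strand: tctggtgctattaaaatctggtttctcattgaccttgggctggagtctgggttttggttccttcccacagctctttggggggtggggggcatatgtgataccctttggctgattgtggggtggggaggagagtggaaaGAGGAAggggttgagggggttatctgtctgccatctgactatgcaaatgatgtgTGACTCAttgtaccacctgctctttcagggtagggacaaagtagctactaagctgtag
Tlr2, chr3:83841768-83841858, minus strand: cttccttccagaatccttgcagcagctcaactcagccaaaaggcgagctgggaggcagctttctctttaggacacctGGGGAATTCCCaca

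Expression of these genes was higher in aged than in young RPE/choroid. By the authors' adjusted p under 0.05, 8 of the 10 genes rose and 0 fell, beside 11.3% of all genes tested that were higher and 9.92% that were lower in aged mice. The genes that rose were 7 receptor genes and Cd14, while Tlr9 and Myd88 did not pass. The median log2 fold change was 0.81 over the 10 genes and -0.01 over all genes tested. Of the genes that passed, 4 had a log2 value of 1 or more, Tlr8, Tlr7, Tlr13 and Tlr2, and 3.65% of all genes tested met both conditions.

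**Figure D1:**
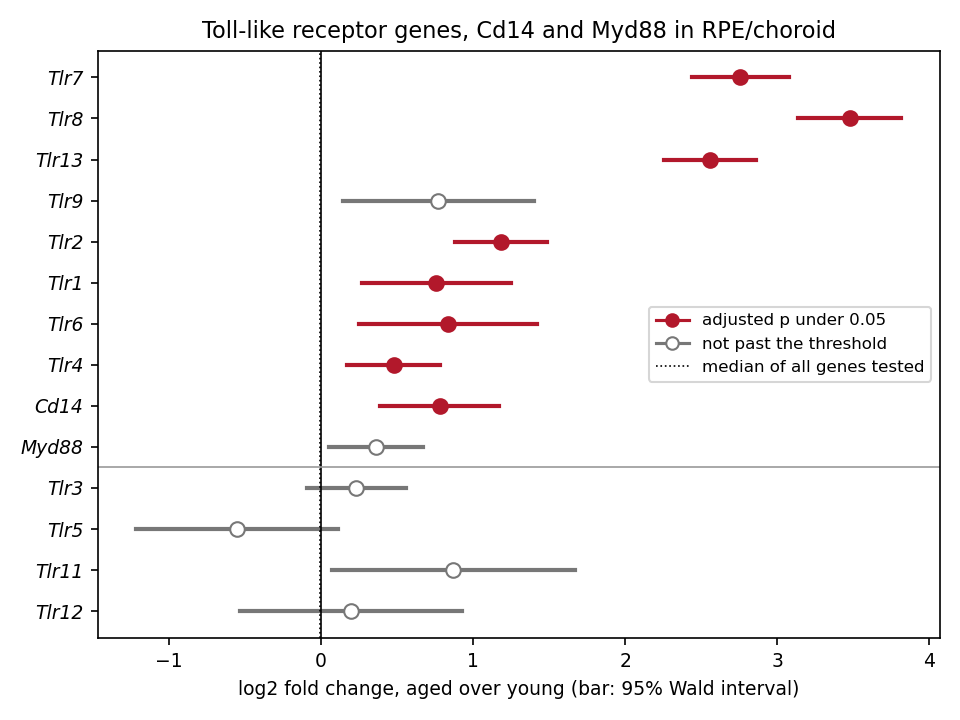
Log2 fold change of aged over young (x axis) with its 95% Wald interval (bars) for the 10 genes and, under the line, the 4 Toll-like receptor genes of the mouse that were not chosen. Filled points passed an adjusted p of 0.05; Tlr7, Tlr8 and Tlr13 lie between 2.56 and 3.47, and all other genes lie at 1.18 or below.

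The endosomal receptors Tlr7, Tlr8 and Tlr13 had the largest rises. Tlr7 and Tlr8 belong to the receptors for single-stranded RNA, and Tlr13, which humans lack, binds bacterial ribosomal RNA. Tlr8, at a baseMean of 562, had a log2 fold change of 3.47 ± 0.17 (adjusted p 1.46e-85). Its level corresponds to about 92.7 normalized counts in young and 1030 in aged mice, an 11.1-fold rise with an interval from 8.77 to 14.1. By size of the log2 fold change it ranked 32nd of the 18636 genes tested.

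Tlr7, at a baseMean of 642, had a log2 fold change of 2.76 ± 0.16 (adjusted p 1.61e-61), which is about 165 normalized counts in young and 1119 in aged mice. Tlr13, at a baseMean of 791, had 2.56 ± 0.15 (adjusted p 2.93e-59), from about 229.6 to 1352 normalized counts. These are rises of 6.76-fold (interval 5.42 to 8.44) and 5.89-fold (interval 4.78 to 7.26), at ranks 77 and 97. The intervals of Tlr7 and Tlr13 overlapped each other, and that of Tlr8 lay above both.

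Tlr9, the receptor for unmethylated CpG DNA, also sits in endosomes. It was listed at a baseMean of 42.7, the lowest of the 10, with a log2 fold change of 0.77 ± 0.32 (unadjusted p 0.0162, adjusted p 0.0687). Its interval ran from 0.14 to 1.40 and lay wholly below those of Tlr7, Tlr8 and Tlr13. Among genes with a baseMean from 30 to 60 the median SE was 0.33, and no log2 difference under 0.73 in size passed. The value of Tlr9 was above that size and did not pass. Tlr6, at a baseMean of 51.7, passed with 0.83 ± 0.30.

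The surface receptors for lipopeptides rose less. Tlr2 pairs with Tlr1 or Tlr6 to bind them. Tlr2, at a baseMean of 545, had a log2 fold change of 1.18 ± 0.15 (adjusted p 9.20e-13), from about 333 to 757 normalized counts, a 2.27-fold rise with an interval from 1.84 to 2.80. Tlr1 and Tlr6 were far lower, at baseMeans of 89.7 and 51.7, with log2 fold changes of 0.76 ± 0.25 (adjusted p 0.0163) and 0.83 ± 0.30 (adjusted p 0.0295). The intervals of all 3 genes overlapped, so their order by fold change is not resolved.

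The lipopolysaccharide receptor Tlr4 had the highest baseMean of the 10 genes, not adjusted for length, and the smallest rise that passed. At a baseMean of 1356 its log2 fold change was 0.48 ± 0.16 (adjusted p 0.0152), from about 1134 to 1578 normalized counts, a 1.39-fold rise with an interval from 1.13 to 1.72. Cd14, which hands lipopolysaccharide to the Tlr4 complex, had a baseMean of 169 and rose by 0.78 ± 0.20 on the log2 scale (adjusted p 0.000956), from about 125 to 214 normalized counts. The interval of Cd14, from 0.39 to 1.17, overlapped that of Tlr4.

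Myd88, the adaptor that all of these receptors share, had a baseMean of 287 and differed by 0.36 ± 0.16 on the log2 scale (unadjusted p 0.0228, adjusted p 0.0878). Its level corresponds to about 251 normalized counts in young and 323 in aged mice, and the interval of the log2 fold change ran from 0.05 to 0.67. This interval lay below those of Tlr8, Tlr7, Tlr13 and Tlr2. On the opposite strand Acaa1a shares 8.93% of the 31-base words of Myd88. The library kit keeps the strand, but the strand setting at counting is not given in the sources used here. Acaa1a had a log2 fold change of 0.23 at a baseMean of 1422, and its part in the value of Myd88 was not tested.

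**Figure D2:**
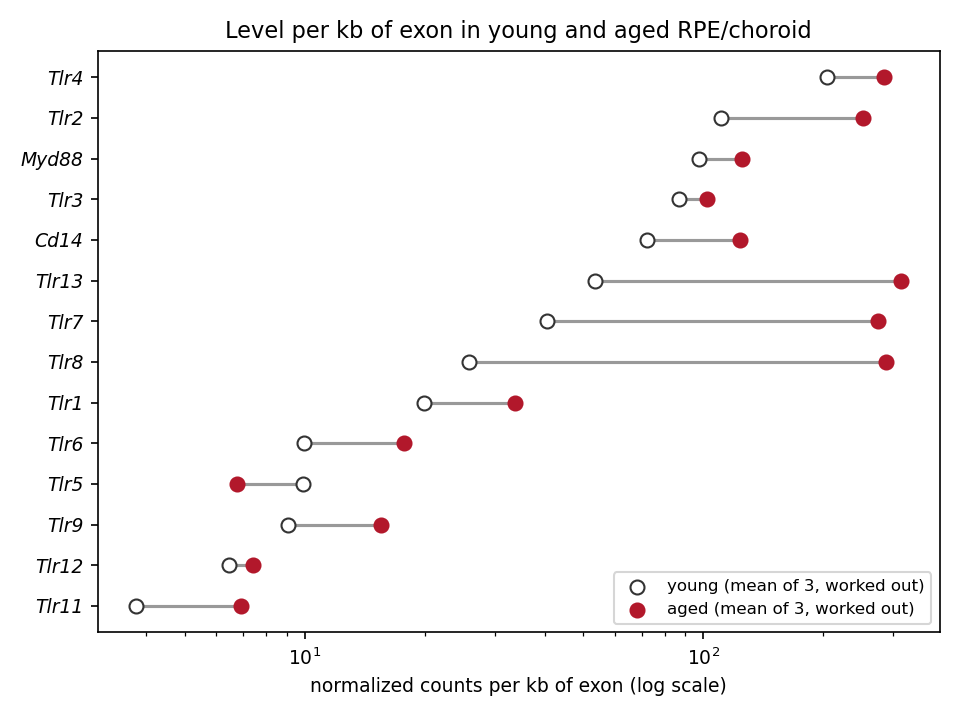
Normalized counts per kb of exon on a log scale (x axis) for the 10 genes and the 4 other Toll-like receptor genes, ordered by their level in young mice, with open points for young and filled points for aged means, both worked out from baseMean and fold change. Tlr13, Tlr7 and Tlr8 moved from 53.3, 40.5 and 25.8 in young to 314, 274 and 287 in aged mice.

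Levels can be compared between genes only per length. Per kb of exon, Tlr4 was the highest of the 12 receptor genes in young mice, with about 204 normalized counts, followed by Tlr2 with 111 and Tlr3 with 87.0. In aged mice Tlr13 (314), Tlr8 (287), Tlr4 (284), Tlr7 (274) and Tlr2 (251) were close to one another. Tlr1 went from 19.9 to 33.7, Tlr6 from 9.96 to 17.8 and Tlr9 from 9.07 to 15.5, which left them far below those 5 genes in aged mice. No error can be given for a level, so the order within the aged group is not resolved.

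Among the 12 receptor genes together, Tlr7, Tlr8 and Tlr13 made up about 20.6% of the signal per kb in young and 54.7% in aged mice. The share of Tlr4 went from 35.2% to 17.7% although its own level rose. With the longest transcript as the length, the 3 genes together had 18.5% in young and 51.9% in aged mice, and with the coding length 15.9% and 47.4%. With the coding length Tlr4 was the highest in aged mice too, with 26.1% against 18.9% for Tlr13.

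The 4 Toll-like receptor genes that were not chosen gave 0 of 4 that passed, beside 11.3% higher and 9.92% lower over all genes tested, so the count says little about them. Tlr3, the endosomal receptor for double-stranded RNA, which signals without Myd88, had a log2 fold change of 0.23 ± 0.17 (adjusted p 0.342) at a baseMean of 492. Its interval ended at 0.56, below those of Tlr7, Tlr8, Tlr13 and Tlr2. Tlr5, the flagellin receptor, had -0.55 ± 0.34 (adjusted p 0.251). Tlr11 and Tlr12, receptors for parasite profilin, had 0.87 ± 0.41 (adjusted p 0.113) and 0.20 ± 0.37 (adjusted p 0.767) at baseMeans of 17.5 and 22.0. At such low levels wide intervals remain.

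**Figure D3:**
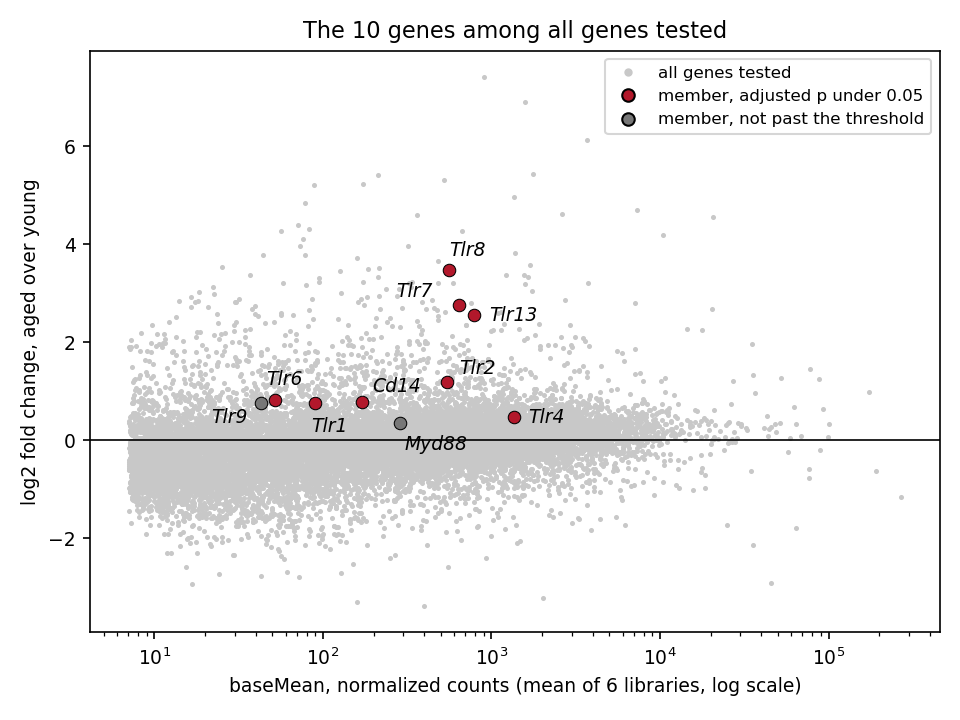
Log2 fold change of aged over young (y axis) against baseMean on a log scale (x axis) for the 18636 genes tested (grey) and the 10 genes (large points, red where the adjusted p was under 0.05). Tlr8, Tlr7 and Tlr13 lie at 3.47, 2.76 and 2.56 at baseMeans from 562 to 791, and Tlr9 and Myd88 are the grey points.

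The 10 genes lie on 6 chromosomes (GRCm38), and several are neighbours. Tlr8 (X, 167242696 to 167264329, minus strand) and Tlr7 (X, 167304929 to 167330558, minus strand) are 40600 bases apart with no other tested protein-coding gene between them. Tlr13 (X, 106143204 to 106160493, plus strand) lies elsewhere on that chromosome. Tlr1 (5, 64924679 to 64933563) and Tlr6 (5, 64952031 to 64960097) are neighbours on the minus strand. Tlr2 (3, 83836272 to 83841767, minus strand), Tlr4 (4, 66827584 to 66930284, plus strand), Tlr9 (9, 106222598 to 106226883, plus strand) and Myd88 (9, 119335934 to 119341411, minus strand) stand apart from the others.

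Tlr7, Tlr8 and Tlr13 all lie on chromosome X, and the part of position in their rises was not tested. Of the 641 tested genes on X, 9.05% were higher in aged mice, beside the 11.3% of all genes tested, with a median log2 value of -0.04. The genes that flank the pair Tlr8 and Tlr7, Tmsb4x and Prps2, rose too, with log2 fold changes of 1.21 ± 0.13 (adjusted p 1.29e-17) and 1.05 ± 0.14 (adjusted p 5.20e-12). Next to Tlr13, Atp7a and Pgk1 had 0.08 ± 0.12 (adjusted p 0.686) and 0.06 ± 0.14 (adjusted p 0.815).

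Tlr1 and Tlr6 are the pair of similar genes between which reads could be divided. Their coding sequences are identical at 74.8% of aligned bases, against 50.2% to 57.8% for the 65 other pairs among the 12 receptor genes. They share 607 words of 31 bases, and each shares fewer words with other genes. In all, 80.0% of the words of Tlr1 and 83.4% of those of Tlr6 occur in no other gene, so how their reads were divided bears on their single values. For the other 8 genes that share was at least 99.4% on the strand of the gene.

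Promoter windows from the RefSeq table used here were searched for 7 of the 10 genes, with 9 windows of 250 bases before a start site. Tlr4, Tlr7 and Cd14 were not searched. The ETS core GAGGAA occurred before 4 of the 7 genes, Tlr1, Tlr8, Tlr9 and Tlr13, and in 23.3% of all 32851 windows. In Tlr1 it is part of GAGGAAGT, a longer motif of the factor PU.1 that 2.44% of all windows hold. The NF-kB motif occurred before Tlr2 and Tlr6 and in 45.8% of all windows, and in Tlr2 it matched at overlapping positions. The interferon response motif, GAAA and GAAA with any 2 bases between them, occurred before Myd88 and Tlr6 and in 2.98% of all windows. For C/EBP (Tlr6 and Tlr8), AP-1 (Tlr9) and the E-box CACGTG (Tlr1), the shares of all windows were 9.56%, 6.75% and 6.02%. The cyclic AMP motif TGACGTCA, held by 1.55% of all windows, was in none of these. All motifs were searched on both strands.

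Of 8 genes whose proteins bring ligands to the receptors, pair with them or carry them to their place, 5 rose and 0 fell, with a median log2 fold change of 0.94, beside 11.3% higher and 9.92% lower over all genes tested. Unc93b1, which escorts the nucleic acid receptors to endosomes, had a log2 fold change of 1.15 ± 0.17 (adjusted p 7.16e-10) at a baseMean of 1093. The receptor-like gene Cd180 and its partner Ly86 had 2.09 ± 0.21 (adjusted p 3.12e-21) and 1.56 ± 0.20 (adjusted p 4.07e-13). The scavenger receptor Cd36, which also works with Tlr2, had 2.04 ± 0.13 (adjusted p 4.80e-53), and the lipopolysaccharide binding protein Lbp had 0.73 ± 0.15 (adjusted p 2.62e-05).

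The remaining genes of that list did not pass. Ly96, the subunit of the Tlr4 complex that binds lipopolysaccharide, had a log2 fold change of 0.41 ± 0.25 (adjusted p 0.250). The folding chaperones Hsp90b1 and Cnpy3 had 0.28 ± 0.14 (adjusted p 0.143) and 0.29 ± 0.14 (adjusted p 0.148).

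Downstream of the receptors the values were mixed. Of the 5 other adaptor genes, 2 rose, beside 11.3% of all genes tested, Pik3ap1 with a log2 fold change of 1.63 ± 0.17 (adjusted p 4.26e-19) and Ticam2, which links Tlr4 to the interferon branch, with 0.90 ± 0.31 (adjusted p 0.0247). Tirap, which brings Myd88 to Tlr2 and Tlr4, had 0.29 ± 0.20 (adjusted p 0.325). Of 15 kinases and ubiquitin ligases, 3 rose and 0 fell, with a median log2 fold change of 0.20, beside the 11.3% of all genes tested that were higher. Btk, a kinase of myeloid and B cells, had 1.47 ± 0.24 (adjusted p 5.09e-08), while Traf3 and Irak4, the kinase that Myd88 binds first, had 0.40 ± 0.15 (adjusted p 0.0405) and 0.40 ± 0.15 (adjusted p 0.0445). After centring on abundant genes, Traf3 and Irak4 no longer passed (adjusted p 0.0969 and 0.105), which left 1 of 15, beside 8.85% of all genes tested.

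Of 9 transcription factor genes, 4 rose, Irf8, Irf5, Relb and Nfkb2, beside 11.3% of all genes tested, or 3 of 9 beside 8.85% after centring on abundant genes. The largest values were those of the myeloid factors Irf8 (1.86 ± 0.15, adjusted p 1.76e-34) and Irf5 (1.23 ± 0.17, adjusted p 1.58e-11). Relb and Nfkb2 of the NF-kB family had 0.59 ± 0.18 (adjusted p 0.00870) and 0.44 ± 0.16 (adjusted p 0.0352, or 0.0823 after centring on abundant genes). Of 10 negative regulators, 2 rose, Tnip1 with 0.65 ± 0.20 (adjusted p 0.0110) and Irak3 with 0.48 ± 0.18 (adjusted p 0.0326, or 0.0720 after the same centring). That is 2 of 10 beside 11.3% of all genes tested, or 1 of 10 beside 8.85% after centring, so the count says little about this list. The RNA-degrading inhibitor Zc3h12a had 0.63 ± 0.27 (adjusted p 0.0734).

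Genes that NF-kB and interferon regulatory factors are known to induce were read beside the receptors. Of 20 listed, 17 were tested, 9 rose and 0 fell, with a median log2 fold change of 0.91, beside 11.3% higher over all genes tested. Ccl2 was 1 of the 9 and did not pass after centring on abundant genes (adjusted p 0.0714). Irg1, which makes itaconate in activated macrophages, had 3.02 ± 0.45 (adjusted p 4.83e-10) at a baseMean of 18.4. The chemokine genes Ccl3 and Cxcl1 had 1.93 ± 0.38 (adjusted p 7.35e-06) and 1.82 ± 0.35 (adjusted p 3.73e-06). Il6, Il10 and Ifnb1 were too low for an adjusted p, at baseMeans of 3.06, 2.72 and 0.751. Over all 71 genes of the pathway that are not among the 10, 68 were tested, 25 rose and 0 fell, with a median log2 fold change of 0.38, and after that centring 20 passed, beside 11.3% and 8.85% of all genes tested that were higher.

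**Figure D4:**
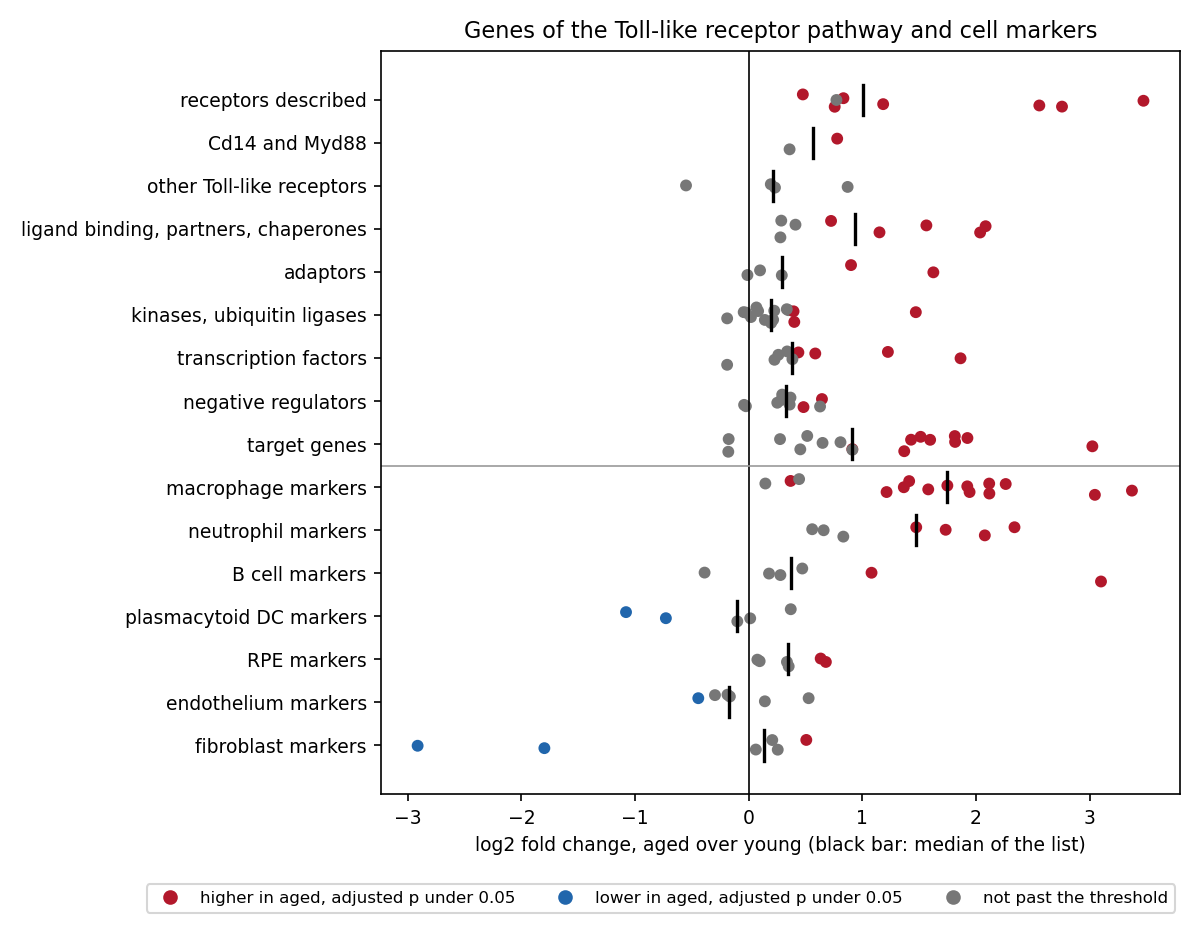
Log2 fold change of aged over young (x axis) for each tested gene of 9 pathway lists and 7 marker lists (rows), with the median of each list as a black bar; red points were higher and blue points lower at an adjusted p under 0.05. Medians are 1.01 for the 8 receptors, 1.75 for macrophage markers, and between -0.18 and 0.34 for RPE, endothelium and fibroblast markers.

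Macrophage markers moved together with these genes. Of 15 macrophage markers, 13 rose, beside 11.3% of all genes tested, with a median log2 fold change of 1.75 and a range from 0.15 to 3.37, and their summed level went from about 13784 to 37752 normalized counts. The log2 fold change of Tlr8 was above this range, although its interval reached into it, those of Tlr7 and Tlr13 were above its median, and those of the other 7 genes were below its median and within the range. The abundant markers C1qa and Csf1r had 1.92 ± 0.18 (adjusted p 5.72e-24) and 0.37 ± 0.13 (adjusted p 0.0276). The part of macrophage number in the rise of the receptors was not tested.

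Other leukocytes that carry these receptors gave mixed values, to be read against 11.3% higher and 9.92% lower over all genes tested. Of the 8 neutrophil markers, 7 were tested and 4 rose, S100a9 with a log2 fold change of 1.47 ± 0.31 (adjusted p 2.66e-05) and Csf3r with 1.73 ± 0.24 (adjusted p 8.53e-12), while S100a8 had 2.34 ± 0.27 and Mmp8 had 2.08 ± 0.39. Their summed level went from about 201 to 616 normalized counts. The defining marker Ly6g stood at a baseMean of 0.296. Of the 7 B cell markers, 6 were tested and 2 rose, Cd22 with 3.10 ± 0.21 (adjusted p 7.31e-49) and Blk, while Cd79b (0.47 ± 0.25, adjusted p 0.181) did not pass. The summed B cell level went from about 232 to 656 normalized counts, and Cd22 alone held about 49.5 of it in young and 425 in aged mice.

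Plasmacytoid dendritic cells are known for Tlr7 and Tlr9. Of 6 of their markers, 5 were tested, 0 rose and 2 fell, beside 9.92% of all genes tested that were lower. Their summed level was about 667 in young and 443 in aged mice. Cox6a2 alone held about 471 of that sum in young and 284 in aged mice, so the sum mostly follows this gene. Siglech, which defines these cells, had a log2 fold change of -0.10 ± 0.35 (adjusted p 0.883), Ccr9, which T cells also express, fell by 1.08 on the log2 scale, and Clec10a and Cox6a2, which other cells also express, had 0.01 ± 0.27 (adjusted p 0.981) and -0.73 ± 0.26 (adjusted p 0.0312). The part of each of these cell types in the values of the receptors was not tested.

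Most markers of the labelled epithelium were abundant, while Best1 stood at a baseMean of 69.8. The small counts for the tissue's own cell types stand beside 11.3% higher and 9.92% lower over all genes tested. The RPE markers Ttr and Rgr stood at baseMeans of 99322 and 92190, with log2 fold changes of 0.08 ± 0.18 (adjusted p 0.810) and 0.63 ± 0.18 (adjusted p 0.00416), and 2 of 6 tested RPE markers rose, Rgr and Best1. Of 6 tested endothelium markers 1, Tek, fell, with Kdr at 0.14 ± 0.16 (adjusted p 0.575) and Emcn at -0.19 ± 0.14 (adjusted p 0.373). No p-value was listed for the RPE markers Rdh5 and Mitf or the endothelium marker Pecam1, which were not tested. Their baseMeans were 10046, 4729 and 1628. Of 6 fibroblast markers Dcn rose and 2 fell, the collagen genes Col1a1 and Col1a2, with -2.91 ± 0.17 and -1.80 ± 0.15. Summed levels in young and aged mice were about 274489 and 336266 for RPE markers and 18888 and 18618 for endothelium markers. Those of the fibroblast markers were about 235284 and 111389. Of this sum Col1a1 held about 80949.5 in young and 10746.5 in aged mice, and Col1a2 about 100279 and 28844.9. The fall of the fibroblast sum thus follows these collagen genes. The other 4 fibroblast markers had log2 fold changes from 0.06 to 0.51, and only Dcn of these passed.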

How the data were processed

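RNA from RPE/choroid of 3 young and 3 aged mice was sequenced. The authors used BBDuk for trimming, STAR for alignment to the Ensembl transcripts (GRCm38) and Sailfish for abundances, which they normalized to the total count. They describe the comparison in DESeq2 as one of read counts, and whether the normalized values entered it is not stated. The library kit keeps the strand and Sailfish was run with its defaults on read pairs, but the strand setting at counting is not given in the sources used here. The deposited table holds, per gene, a baseMean (a normalized signal), a log2 fold change with its SE, a Wald score, and a p-value with its Benjamini-Hochberg adjusted p. It holds 0 columns that name a sample, so no count test was rerun and the authors' deposited values from DESeq2 are described.

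The sign is not stated in the file. It was read as young relative to aged from how the study names the contrast and from its numbers of genes in each direction, and was reversed, so every direction here depends on that reading. Genes were called at an adjusted p under 0.05. The 7885 genes with a p-value and no adjusted p, all at a baseMean of at most 7.07, were not counted as tested. Neither were 160 genes with a fold change and no p-value, some of them abundant. Group means assume 3 libraries per group. Lengths, positions and shared words came from GENCODE transcripts on GRCm38, and promoters from RefSeq. The authors counted on an older Ensembl release, so levels per kb and shared words rest on transcripts that may differ from theirs. Gene symbols of older annotation (Emr1, Sfpi1, Irg1) were matched through synonyms. Adjustments and motif searches were tested on simulated data (Python 3.11.15, scipy 1.17.1, Biopython 1.88).

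The 10 genes and all lists were chosen with earlier results of these data known. Genes are named by rule: all 10, all other receptors and ligand partners, the 3 called genes with the largest absolute fold change of each further pathway list (filled up by lowest p), and the 2 most abundant genes of each marker list. Nfkb2, S100a8, Mmp8, Ccr9, Best1, Tek, Dcn, Tmsb4x, Prps2, Atp7a, Pgk1, Acaa1a, Il6, Il10, Ifnb1, Ly6g, Blk, Ccl2, Siglech, Rdh5, Mitf and Pecam1 were named after their values were seen. The alternatives were no filter on low genes, centring on abundant or on all genes, an adjusted p under 0.01, a fold change minimum, the Benjamini-Yekutieli adjustment, other lengths and other word lengths.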

Additional observations from a re-analysis of the deposited data

How the results depend on the processing

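The count of 8 genes that rose was the same without a filter on low genes and under centring on genes with a baseMean of at least 100, which lowers each fold change by 0.07, or on all genes tested. It was 5 with an adjusted p under 0.01 and 5 under the Benjamini-Yekutieli adjustment, where Tlr1, Tlr4 and Tlr6 no longer passed, and 4 where an at least 2-fold difference was asked for as well, when Cd14 did not pass either. These 3 are stricter by construction. Tlr7, Tlr8, Tlr13 and Tlr2 passed under each alternative run, and none of the 10 changed direction. Tlr9 and Myd88 passed under none, with adjusted p-values from 0.0663 to 0.715 and from 0.0822 to 0.914 among those that recompute p. For the 68 pathway genes, 25 calls became 20 after centring on abundant genes (Ccl2, Irak3, Irak4, Nfkb2 and Traf3 were lost) and 16 with the 2-fold minimum. Centring on abundant genes moved the balance over all genes from 2100 higher and 1849 lower to 1650 and 2289. Of the 10 genes, 2 shared over 10% of their words with other genes at 31 bases, and 1 (Tlr1) at 75 bases. No paired analysis was possible because single libraries have no values here, and leaving out a replicate was not run for that reason. Over all genes, higher and lower calls numbered 1447 and 1073 with an adjusted p under 0.01, 1285 and 860 under Benjamini-Yekutieli, and 681 and 861 with the 2-fold minimum.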
